A study of Mus musculus with 12 samples.

Results

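The genes described here mark the early steps of the oligodendrocyte lineage: 30 of the 53465 genes counted in every library, taken by name, 13 of them known from oligodendrocyte progenitors and 17 from committed precursors and newly differentiating oligodendrocytes. They were read in 12 RNA-seq libraries of glia sorted from the brachial and thoracic spinal cord of Aldh1L1-GFP/Olig2-tdTomato mice on a C57BL/6 background at postnatal day 7. Papain-dissociated cells carrying both reporters (eGFP/tdTomato), tdTomato, or eGFP gave 4 libraries per fraction, numbered 1, 2, 3 and 5, and all 3 fractions come from the same double-reporter genotype, so no fraction is free of either transgene. In this design eGFP follows Aldh1l1, an astrocyte gene, and tdTomato follows Olig2, a gene of the oligodendrocyte lineage and of some astrocytes. How the sort was gated and how many animals went into a library are not stated in the labels, and the p-values below measure only the spread between these libraries.

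Oligodendrocyte progenitors divide, migrate through the cord and carry the growth factor receptor Pdgfra and the proteoglycan Cspg4 on their surface. A progenitor that stops dividing passes through a committed stage, in which Gpr17, Enpp6 and Bcas1 are switched on, before the abundant myelin genes follow. In the early postnatal spinal cord these stages stand side by side with oligodendrocytes that already make myelin.

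The 30 genes fell into unequal groups. The eGFP/tdTomato fraction was lower than the tdTomato fraction for 24 members and higher for Ptprz1 and Tnfaip6. It was higher than the eGFP fraction for 5 members, Lims2, Gpr17, Enpp6, Bcas1 and Nfasc, and lower for Tmem163, so 6 of 30 members were called where 2.49% of all genes tested were. The comparison with tdTomato cells called 26 of 30, where 29.2% of all genes were. For these 5 members the double-reporter level was 2.43-fold to 12.7-fold that of the eGFP fraction and 32.5-fold to 48.6-fold below that of the tdTomato fraction. The members and all lists below were chosen with earlier results of these data known. Counts of calls beside the share of all genes therefore describe the lists and do not test them.

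Promoter sequence is shown for 1 member of each of the 3 main behaviours, as single examples that do not stand for their groups. Enpp6 was lower than in tdTomato cells and higher than in eGFP cells. Cnksr3 was lower than in tdTomato cells with no call against eGFP cells, and Ptprz1 was higher than in tdTomato cells. Each run holds the 250 bases before the RefSeq start on GRCm38.p6, read 5′ to 3′ on the strand of the gene, and no annotated exon lies in it. Capitals mark matches to ACAANG, the core letters bound by SOX proteins such as Sox10, on either strand.
Enpp6 (chr8:46986637-46986886, plus strand): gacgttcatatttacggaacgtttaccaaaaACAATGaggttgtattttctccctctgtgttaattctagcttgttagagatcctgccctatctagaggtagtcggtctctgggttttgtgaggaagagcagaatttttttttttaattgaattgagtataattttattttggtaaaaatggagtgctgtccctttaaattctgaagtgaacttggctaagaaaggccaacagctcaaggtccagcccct
Cnksr3 (chr10:7212238-7212487, minus strand): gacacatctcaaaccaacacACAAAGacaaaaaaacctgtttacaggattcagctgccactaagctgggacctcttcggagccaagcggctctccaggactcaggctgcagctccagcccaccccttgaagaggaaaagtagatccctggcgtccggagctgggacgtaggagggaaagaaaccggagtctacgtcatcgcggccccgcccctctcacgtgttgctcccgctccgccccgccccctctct
Ptprz1 (chr6:22875252-22875501, plus strand): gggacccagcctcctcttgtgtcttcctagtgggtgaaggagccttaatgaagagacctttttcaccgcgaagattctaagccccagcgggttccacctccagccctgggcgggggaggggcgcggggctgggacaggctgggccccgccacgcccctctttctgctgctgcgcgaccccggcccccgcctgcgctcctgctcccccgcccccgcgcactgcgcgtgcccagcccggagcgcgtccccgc
Enpp6 and Cnksr3 held 1 ACAANG match each and Ptprz1 held none. Nfasc, called in the same directions as Enpp6, held none in its windows, and neither did Tnfaip6, which was called as Ptprz1 was. Among members called as Cnksr3 was and with a window, only Sirt2 and Gpr37 also held ACAANG. The RefSeq table held 25 start windows for 22 of the 30 members, and 7 of these 25 windows (28.0%) held ACAANG, against 36.3% of all 32851 windows of the same length. CANNTG, the E-box letters bound by Olig2 and its partners, stood in 17 of the 25 (68.0%) and in 66.2% of all windows, overlapping matches counted. Cnksr3 held 2 E-boxes, and Enpp6 and Ptprz1 held none. These matches are letters in a window, not measured binding sites.

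Library depth ranged from 23915784 to 30299452 reads in genes for the eGFP/tdTomato fraction, from 25460920 to 36505583 for the tdTomato fraction and from 12564767 to 27898597 for the eGFP fraction. The library of eGFP replicate 1 stood apart: 57.1% of its reads were assigned to no annotated feature, against 21.2% to 42.5% in the other 11. The summed level of 1730 olfactory and vomeronasal receptor genes, which glia are not known to use, was 3966 CPM there. Elsewhere it was at most 1645 CPM, and these receptor sums were taken without the TMM scaling described below. A second split ran across fractions: 6 libraries (eGFP/tdTomato replicates 1, 2 and 5, tdTomato replicate 5 and eGFP replicates 1 and 5) had over 40000 genes with a count and the other 6 had fewer. The first 6 thus hold 1 tdTomato library and the other 6 hold 1 eGFP/tdTomato library, and in fits of either set the lone library is taken to vary as the other fractions do. Marker sums differed between the fractions, which does not measure how pure each fraction was. The summed level of 12 genes of myelinating oligodendrocytes was 1097 to 2440.1 CPM in eGFP/tdTomato and 60636 to 102915 CPM in tdTomato libraries. In eGFP libraries this level was 393 to 1229 CPM, which overlaps the eGFP/tdTomato range. That of 12 astrocyte genes was 47546 to 55867 CPM in eGFP/tdTomato and 498 to 656 CPM in tdTomato libraries, against 34176 to 50814 CPM in eGFP libraries. In such bulk libraries, fewer cells of a type and less RNA per cell cannot be told apart.

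Levels are given as CPM, counts-per-million of the reads in genes scaled by TMM factors, in the order of replicates 1, 2, 3 and 5, and differences as log2 fold changes with their standard error. A gene is called where the p-value of edgeR's quasi-likelihood test, adjusted by Benjamini-Hochberg over 29361 genes, is under 0.05. All 30 members passed the filter on low counts. The 3 comparisons between fractions share libraries, so their values are set side by side and not as independent evidence.

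The span between the single-reporter fractions came first, since it shows which members follow the tdTomato reporter. The tdTomato fraction was higher than the eGFP fraction for 25 of 30 members and lower for 2, against 14.9% of all genes tested called higher and 20.4% called lower (35.2% in either direction). All 17 committed members were called, 16 higher and Tnfaip6 lower, with a median log2 fold change of 4.68, against -0.79 over all genes tested. Of the 13 progenitor members, 9 were higher, Ptprz1 was lower, and C1ql1, Emid1 and Rlbp1 were not called, with a median of 2.06. Within the 6 libraries with over 40000 genes detected, where tdTomato replicate 5 is the only tdTomato library, the calls of Ptprz1 (adjusted p = 0.311), Lhfpl3 (0.177), C1ql2 (0.0754) and Xylt1 (0.0521) were lost. Thus 16 committed and 9 progenitor members marked the tdTomato fraction, while C1ql1, Emid1, Rlbp1, Ptprz1 and Tnfaip6 did not. All 12 genes of myelinating oligodendrocytes were also higher in tdTomato than in eGFP cells, with a median log2 fold change of 7.98. This comparison therefore cannot tell the stage of the cells. Levels per kilobase of exon placed Sirt2 first in tdTomato cells at 1246 ± 227 CPM per kb, followed by Mpzl1 at 393 ± 107, Nfasc at 355 ± 121 and Fyn at 349 ± 80.6 (mean ± SD, n = 4). The last 3 of these did not differ beyond their spread. In the eGFP/tdTomato fraction Ptprz1 came first at 138 ± 22.1 CPM per kb, before Sirt2 at 71.5 ± 12.8, and in the eGFP fraction the same pair led, with Ptprz1 at 82.97 ± 29.1 and Sirt2 at 43.6 ± 8.24.

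**Figure D1:**
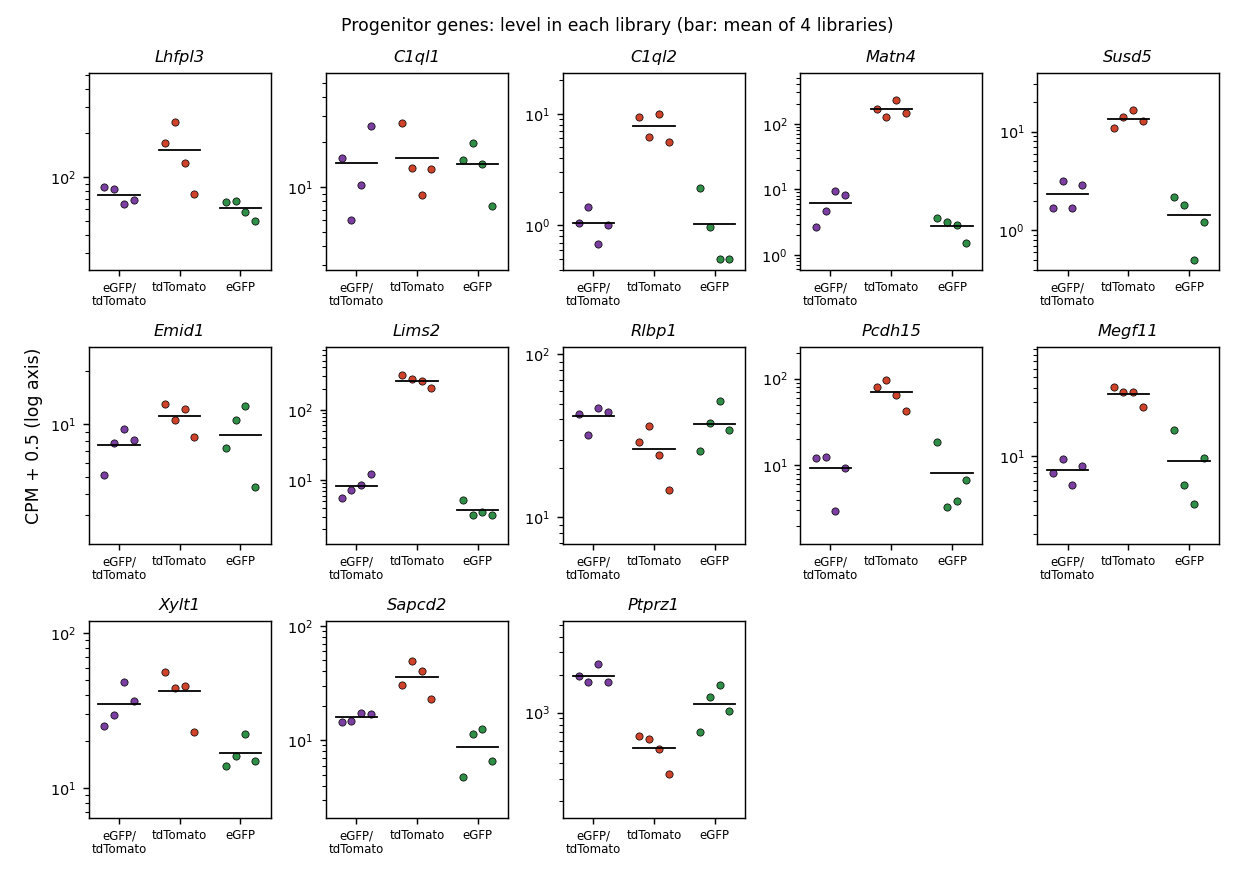
Level of the 13 progenitor members in each library, as CPM plus 0.5 on a log axis whose range differs by panel. Points are libraries of replicates 1, 2, 3 and 5 from left to right, and bars are means of 4 libraries. Lims2, Matn4, Pcdh15 and Megf11 sit highest in the tdTomato fraction, Ptprz1 lowest there, and C1ql1, Emid1 and Rlbp1 overlap in all 3 fractions.

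Among progenitor genes, 1 of 13 was higher in eGFP/tdTomato than in eGFP cells and none was lower, where 0.814% and 1.67% of all genes tested were called in those directions. Against tdTomato cells, 8 of 13 were lower and 1 was higher, where 12.4% and 16.8% of all genes were. The median log2 fold change was 0.32 over eGFP and -1.20 over tdTomato, against -0.02 and 0.70 over all genes tested.

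Lims2, an adaptor of focal adhesions also called PINCH2, was the progenitor member called against both fractions (ENSMUSG00000024395; chromosome 18, 31922290 to 31958619). It had 4.999, 6.76, 8.04 and 11.6 CPM in the eGFP/tdTomato libraries and 309, 271, 258 and 203 CPM in the tdTomato libraries, against 4.72, 2.67, 2.97 and 2.63 CPM in the eGFP libraries. The 3 fractions did not overlap, although the lowest eGFP/tdTomato library stood just above eGFP replicate 1. The log2 fold change was 1.28 ± 0.27 over eGFP (adjusted p = 0.0152) and -5.05 ± 0.29 over tdTomato (adjusted p = 4.13e-09). The call against eGFP ended without eGFP/tdTomato replicate 5 (adjusted p = 0.0625), without eGFP replicate 2 (0.0618) and without eGFP replicate 5 (0.0668). Lims2 shares 188 exon bases, 6.14% of its own, with Gpr17 on the other strand, and the strand setting of the counting is not given in the sources used here.

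Of the genes for secreted and matrix proteins, Matn4, a matrilin of the extracellular matrix, had 2.18 to 8.79 CPM in eGFP/tdTomato and 128 to 229 CPM in tdTomato libraries, against 1.02 to 3.17 CPM in eGFP libraries. It was 29.2-fold lower than in tdTomato cells (adjusted p = 3.09e-07). Its difference from eGFP cells, 1.33 ± 0.40 on the log2 scale, was not called (adjusted p = 0.128) but passed in 4 of 25 other settings. C1ql1, a secreted C1q-domain protein that binds adhesion receptors at synapses, averaged 13.96 ± 8.58 CPM in eGFP/tdTomato and 15.1 ± 7.86 CPM in tdTomato, against 13.7 ± 5.10 CPM in eGFP libraries, with no call between any of them. Its relative C1ql2 reached 0.188 to 0.955 CPM in eGFP/tdTomato and 5.11 to 9.42 CPM in tdTomato libraries, against 0 to 1.67 CPM in eGFP libraries, where replicates 3 and 5 had no read. Per kilobase, C1ql2 lay under the 90th percentile of the receptor genes in all 4 eGFP/tdTomato and all 4 eGFP libraries, so only its tdTomato level stood above that background. Susd5, a membrane protein with a sushi domain, had 1.19 to 2.66 CPM in eGFP/tdTomato and 10.4 to 15.9 CPM in tdTomato libraries, against 0 to 1.67 CPM in eGFP libraries, all 4 of the last under the same percentile. Emid1, a secreted protein with an EMI domain, averaged 7.06 ± 1.77 CPM in eGFP/tdTomato and 10.5 ± 2.01 CPM in tdTomato, against 8.18 ± 3.63 CPM in eGFP libraries, and was not called.

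Surface and adhesion genes went both ways. Ptprz1 encodes a receptor-type phosphatase and chondroitin sulfate proteoglycan that progenitors and astroglia share (ENSMUSG00000068748; chromosome 6, 22875502 to 23052916). It had 1936, 1742, 2413 and 1749.8 CPM in the eGFP/tdTomato libraries and 659, 616, 511 and 325 CPM in the tdTomato libraries, against 697, 1341, 1663 and 1026 CPM in the eGFP libraries. Every eGFP/tdTomato library was above every library of both other fractions. The excess over tdTomato was called (1.89 ± 0.28, adjusted p = 6.53e-05) and that over eGFP was not (0.73 ± 0.27, 95% interval 0.16 to 1.30, adjusted p = 0.269). Lhfpl3, a tetraspan membrane protein, had 84.7, 82.1, 64.1 and 68.8 CPM in eGFP/tdTomato and 171, 237, 123 and 75.4 CPM in tdTomato libraries, against 67.04, 67.8, 56.8 and 49.3 CPM in eGFP libraries (ENSMUSG00000106379; chromosome 5, 22746059 to 23275597). Its eGFP/tdTomato values overlapped both other fractions, and tdTomato replicate 5 lay well under the other tdTomato libraries. It was lower than in tdTomato cells (-1.02 ± 0.27, adjusted p = 0.00965) and not called against eGFP cells (adjusted p = 0.954), and the first call was lost within the 6 libraries with over 40000 genes detected, whose only tdTomato library is that low replicate 5 (adjusted p = 0.721). A further 17.6% of its exon bases overlap an RNA gene on the other strand. Pcdh15, a protocadherin known from hair-cell tip links, had 2.44 to 12.01 CPM in eGFP/tdTomato and 41.5 to 96.8 CPM in tdTomato libraries, against 2.76 to 17.8 CPM in eGFP libraries. Megf11, a membrane protein with EGF-like repeats, had 4.96 to 8.91 CPM in eGFP/tdTomato and 26.8 to 40.8 CPM in tdTomato libraries, against 3.23 to 16.5 CPM in eGFP libraries. Both were lower than in tdTomato cells, 8.08-fold for Pcdh15 and 4.99-fold for Megf11, and their eGFP libraries scattered widely, with eGFP replicate 1 the highest for each. Per kilobase, Pcdh15 lay under the 90th percentile of the receptor genes in 3 of 4 eGFP/tdTomato and all 4 eGFP libraries, so its fold is set against a level near that background.

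Of the 3 other intracellular members Xylt1, Sapcd2 and Rlbp1, only Sapcd2 was called against tdTomato. Xylt1, the enzyme that starts glycosaminoglycan chains on proteoglycans, averaged 34.4 ± 10.001 CPM in eGFP/tdTomato and 41.8 ± 13.8 CPM in tdTomato, against 16.3 ± 3.78 CPM in eGFP libraries. Its eGFP/tdTomato libraries, 24.7 to 47.7 CPM, lay above all eGFP libraries, 13.3 to 21.8 CPM, but the difference just missed the call (1.07 ± 0.28, adjusted p = 0.0556) and passed it in 8 of 25 other settings. Against tdTomato it differed by -0.28 ± 0.27 (95% interval -0.86 to 0.29). Sapcd2, which acts in spindle orientation, averaged 15.4 ± 1.45 CPM in eGFP/tdTomato and 35.4 ± 11.5 CPM in tdTomato, against 8.24 ± 3.70 CPM in eGFP libraries. It was lower than in tdTomato cells (adjusted p = 0.00677). Against eGFP it was not called (adjusted p = 0.21) but passed in 3 of 25 other settings. The summed level of 10 genes of dividing cells was 222 to 287 CPM in eGFP/tdTomato and 192 to 440.1 CPM in tdTomato libraries, against 69.5 to 133 CPM in eGFP libraries, and its part in the Sapcd2 values was not tested. Rlbp1, a retinaldehyde-binding protein, averaged 41.2 ± 6.61 CPM in eGFP/tdTomato and 25.6 ± 9.14 CPM in tdTomato, against 37.01 ± 11.1 CPM in eGFP libraries, with no call (adjusted p = 0.0737 against tdTomato).

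**Figure D2:**
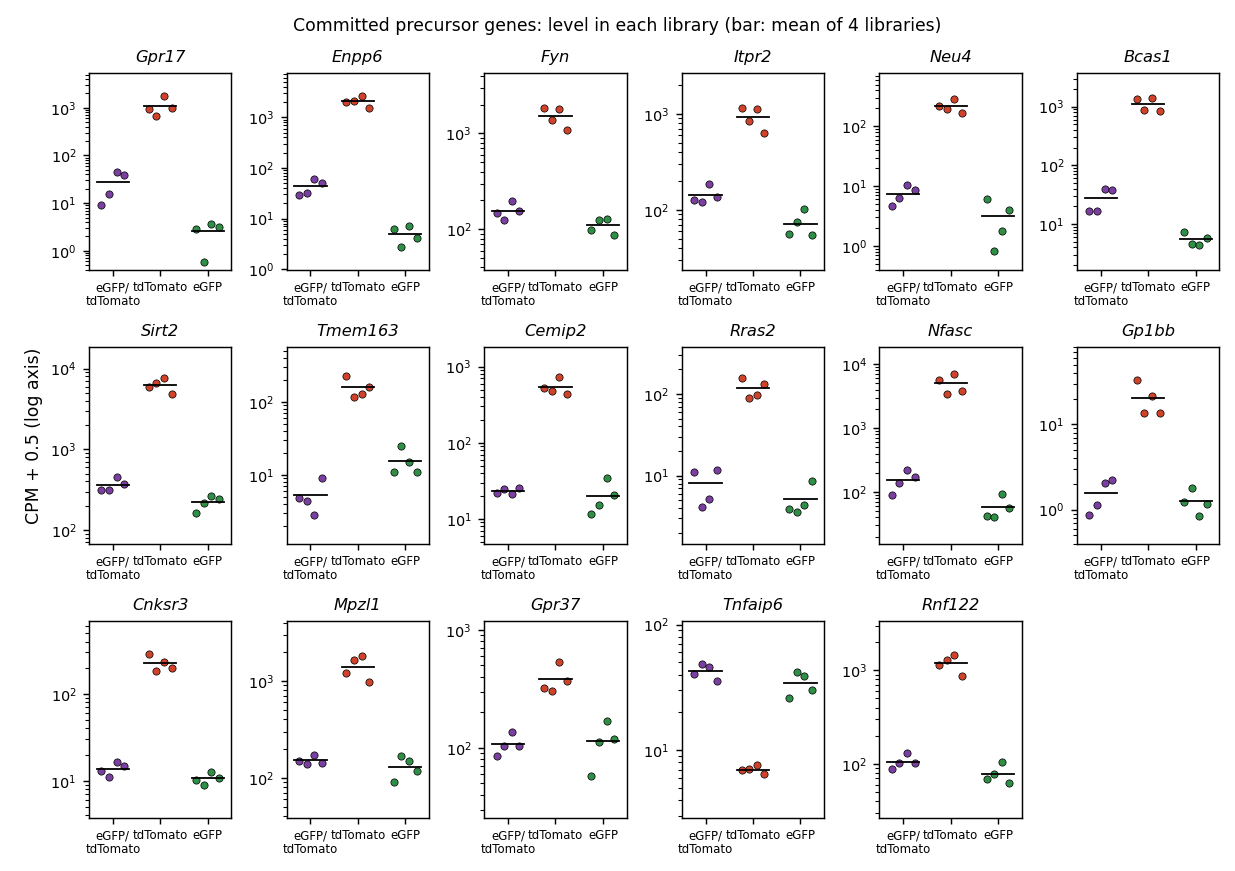
Level of the 17 committed precursor members in each library, as CPM plus 0.5 on a log axis whose range differs by panel. Points are libraries of replicates 1, 2, 3 and 5 from left to right, and bars are means of 4 libraries. In 16 panels the tdTomato libraries sit highest, and for Tnfaip6 they sit lowest, at 5.92 to 7.05 CPM.

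Committed genes gave a steeper picture. Of 17 members, 4 were higher in eGFP/tdTomato than in eGFP cells and 1 was lower, against 0.814% and 1.67% of all genes tested. Compared with tdTomato cells 16 were lower and 1 was higher, against 12.4% and 16.8% of all genes. Their median log2 fold change was 0.51 over eGFP and -4.12 over tdTomato.

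Gpr17, a G protein-coupled receptor switched on at commitment and known to hold back maturation, had the highest estimated log2 fold change over the eGFP fraction of the 30 members, within the errors of that of Enpp6 (ENSMUSG00000052229; chromosome 18, 31942997 to 31949636). It had 8.84, 15.1, 43.6 and 39.2 CPM in the eGFP/tdTomato libraries and 948, 681, 1780.4 and 970.4 CPM in the tdTomato libraries, against 2.33, 0.0921, 3.19 and 2.71 CPM in the eGFP libraries. No fraction overlapped another, and eGFP/tdTomato replicates 3 and 5 stood well above replicates 1 and 2. The log2 fold change was 3.66 ± 0.65 over eGFP (adjusted p = 0.00481) and -5.36 ± 0.67 over tdTomato (adjusted p = 1.39e-05). In 2 of 4 eGFP libraries Gpr17 per kilobase lay under the median of the receptor genes. The call against eGFP was lost without the 3 libraries numbered 5 (adjusted p = 0.0873) and within the 6 libraries with fewer genes detected (adjusted p = 0.118).

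Enpp6 is a choline-specific phosphodiesterase that marks newly forming oligodendrocytes (ENSMUSG00000038173; chromosome 8, 46986887 to 47096762). Its levels were 28.5, 32.1, 60.2 and 50.1 CPM in the eGFP/tdTomato libraries and 1991, 2125, 2628 and 1557 CPM in the tdTomato libraries, against 5.78, 2.26, 6.61 and 3.61 CPM in the eGFP libraries. The fractions were fully separate, and this was the member with the lowest adjusted p over eGFP (3.23 ± 0.34, adjusted p = 8.44e-05). Bcas1, a marker of oligodendrocytes that begin to myelinate, had 16.02, 16.3, 39.6 and 36.9 CPM in the eGFP/tdTomato libraries and 1359, 872, 1389 and 854 CPM in the tdTomato libraries, against 6.73, 4.01, 3.94 and 5.31 CPM in the eGFP libraries (ENSMUSG00000013523; chromosome 2, 170346991 to 170427845). It too was separate in all fractions, with a log2 fold change of 2.45 ± 0.33 over eGFP (adjusted p = 0.000626). Enpp6 and Bcas1 kept their calls against eGFP in each of the 25 other settings, with log2 fold changes of 2.99 to 3.76 for Enpp6 and 1.99 to 3.33 for Bcas1. Another 11.7% of the exon bases of Bcas1 overlap an antisense gene.

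Nfasc encodes the adhesion molecule neurofascin, whose glial form joins the myelin loops to the axon beside the node (ENSMUSG00000026442; chromosome 1, 132564690 to 132741797). It had 90.8, 137, 221 and 169 CPM in the eGFP/tdTomato libraries and 5699, 3472, 7124 and 3803 CPM in the tdTomato libraries, against 42.1, 39.9, 92.9 and 56.3 CPM in the eGFP libraries. The lowest eGFP/tdTomato library, replicate 1, lay under the highest eGFP library, replicate 3. The log2 fold change over eGFP was 1.42 ± 0.33 (adjusted p = 0.0325). It lost the call without any 1 of 7 libraries: eGFP/tdTomato replicates 2, 3 or 5 (adjusted p = 0.0558, 0.126 and 0.102), tdTomato replicate 1 (0.0537), or eGFP replicates 1, 2 or 5 (0.0667, 0.132 and 0.122).

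Tmem163, a zinc transporter of the membrane, was the 1 committed gene called lower than in eGFP cells (ENSMUSG00000026347; chromosome 1, 127486546 to 127679548). Its levels were 4.32, 3.94, 2.37 and 8.46 CPM in the eGFP/tdTomato libraries and 224, 115, 126 and 160.4 CPM in the tdTomato libraries, against 10.3, 24.4, 14.7 and 10.3 CPM in the eGFP libraries. All 4 eGFP/tdTomato libraries were below all eGFP libraries, with a log2 fold change of -1.64 ± 0.37 (adjusted p = 0.0266), and -5.03 ± 0.42 over tdTomato (adjusted p = 1.67e-07). The call against eGFP ended without eGFP/tdTomato replicate 1, 2 or 3 (adjusted p = 0.0887, 0.0849 and 0.0764) and without eGFP replicate 2 (0.111). No other member had an eGFP/tdTomato mean outside both single-reporter means with a call against the nearer one. Tmem163 shares 3.54% of its exon bases with Mgat5 on the other strand.

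The most abundant committed members per kilobase also included Sirt2 and Mpzl1. Sirt2, a deacetylase enriched in oligodendrocytes, had 309, 315, 448 and 368 CPM in eGFP/tdTomato and 5978, 6579, 7639.6 and 4901 CPM in tdTomato libraries, against 163, 217, 260.3 and 238 CPM in eGFP libraries (ENSMUSG00000015149; chromosome 7, 28766735 to 28788661). No eGFP/tdTomato library overlapped an eGFP library, yet the difference over eGFP (0.71 ± 0.21) was not called (adjusted p = 0.102). It passed the call in 4 of 25 other settings. Mpzl1, a membrane glycoprotein related to myelin protein zero, had 149, 139.5, 173 and 142 CPM in eGFP/tdTomato and 1198, 1629, 1788 and 969.8 CPM in tdTomato libraries, against 89.8, 166, 148 and 117 CPM in eGFP libraries (ENSMUSG00000026566; chromosome 1, 165592240 to 165634538). Its eGFP/tdTomato and eGFP values overlapped (log2 difference 0.22 ± 0.23, 95% interval -0.27 to 0.70).

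The remaining signalling genes were lower than in tdTomato cells and not called against eGFP cells. Fyn, a Src-family kinase of early myelination, had 123 to 195 CPM in eGFP/tdTomato and 1087 to 1824 CPM in tdTomato libraries, against 87.4 to 127 CPM in eGFP libraries. Itpr2, a calcium release channel of the endoplasmic reticulum that astrocytes also use, had 122 to 186 CPM in eGFP/tdTomato and 626 to 1140.1 CPM in tdTomato libraries, against 55.1 to 102 CPM in eGFP libraries. Itpr2 just missed the call over eGFP (0.99 ± 0.25, adjusted p = 0.0502), passed it in 9 of 25 other settings, and its eGFP/tdTomato libraries lay above all eGFP libraries. Rras2, a small GTPase, had 3.62 to 11.4 CPM in eGFP/tdTomato and 89.8 to 155 CPM in tdTomato libraries, against 3.04 to 8.01 CPM in eGFP libraries. Cnksr3, a scaffold of kinase signalling, had 10.5 to 15.7 CPM in eGFP/tdTomato and 182 to 290.2 CPM in tdTomato libraries, against 8.47 to 12.1 CPM in eGFP libraries. For both genes the eGFP/tdTomato and eGFP ranges overlapped. Gpr37, an orphan receptor of oligodendrocytes that slows their maturation, showed the smallest fall from the tdTomato level of the 16 lower members, 3.55-fold, with 108 ± 21.5 CPM in eGFP/tdTomato and 382 ± 104 CPM in tdTomato, against 114 ± 45.8 CPM in eGFP libraries.

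The remaining enzymes and surface proteins of the committed list, Neu4, Cemip2, Rnf122 and Gp1bb, were also lower than in tdTomato cells and not called against eGFP cells. Neu4, a sialidase, had 4.25 to 9.88 CPM in eGFP/tdTomato and 169 to 288 CPM in tdTomato libraries, against 0.322 to 5.56 CPM in eGFP libraries. Cemip2, a hyaluronidase of the cell surface, had 21.1 to 25.3 CPM in eGFP/tdTomato and 431 to 734 CPM in tdTomato libraries, against 11.2 to 33.6 CPM in eGFP libraries. Rnf122, a ubiquitin ligase, had 86.5 to 129 CPM in eGFP/tdTomato and 876 to 1442 CPM in tdTomato libraries, against 61.8 to 104 CPM in eGFP libraries. All 3 were far below the tdTomato range, with folds of 31.2, 23.4 and 11.4, and overlapped the eGFP range. Gp1bb, known from the platelet glycoprotein complex, averaged 1.07 ± 0.667 CPM in eGFP/tdTomato and 19.9 ± 9.41 CPM in tdTomato, against 0.757 ± 0.395 CPM in eGFP libraries. Its values are uncertain, because 91.1% of its exon bases lie in Sept5 on the same strand.

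Tnfaip6, a secreted hyaluronan-binding protein also called TSG-6, ran opposite to its list. Its levels were 35.2 to 47.8 CPM in eGFP/tdTomato and 5.92 to 7.05 CPM in tdTomato libraries, against 25.5 to 41.4 CPM in eGFP libraries. It was 6.49-fold higher than in tdTomato cells (adjusted p = 3.67e-08) and not called against eGFP cells (0.32 ± 0.18, 95% interval -0.07 to 0.71). The astrocyte list was highest in the same 2 fractions, and its part in the Tnfaip6 and Ptprz1 values was not tested.

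**Figure D3:**
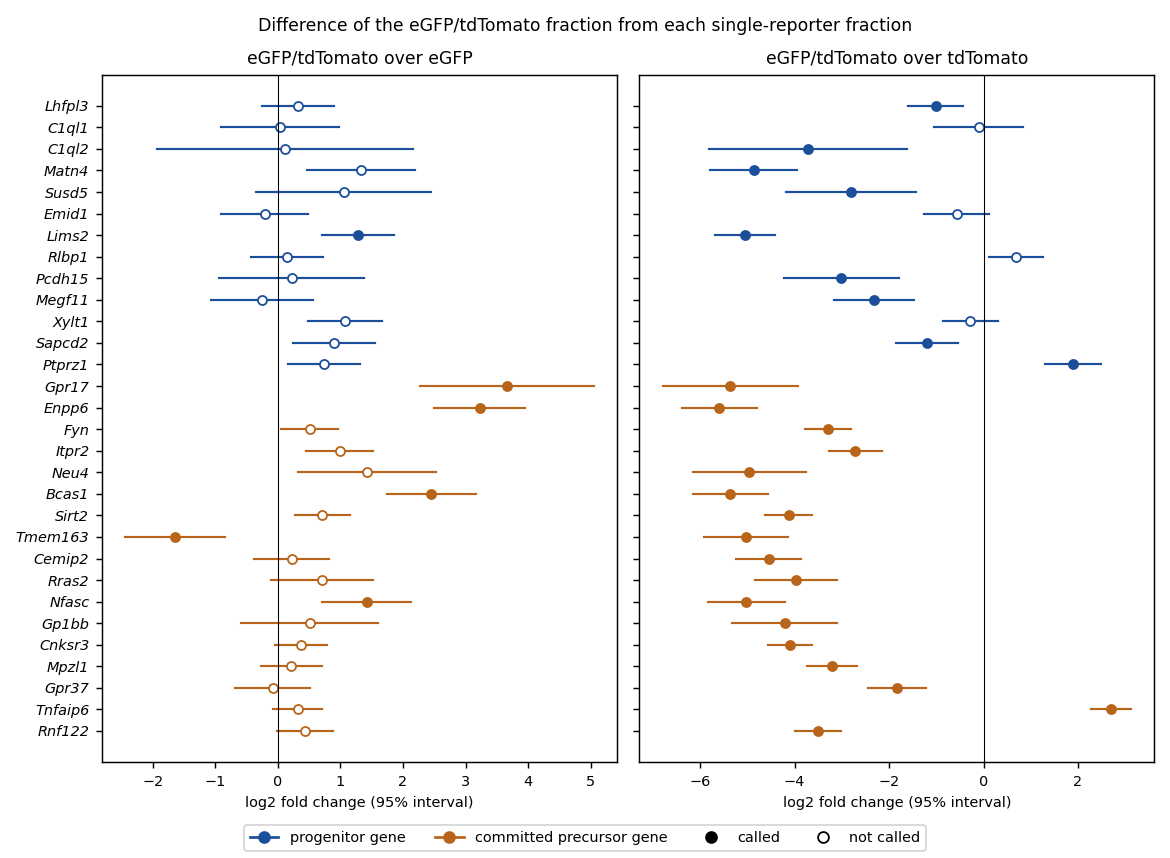
Log2 fold change of each member in the eGFP/tdTomato fraction over the eGFP fraction (left) and over the tdTomato fraction (right), with 95% intervals from the edgeR fit of 12 libraries. Filled points are called. On the left 6 points are filled and on the right 26, of which Ptprz1 and Tnfaip6 lie above 0.

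To place the double-reporter level between the single-reporter levels, each eGFP/tdTomato library was expressed as a percentage of the way from the eGFP mean (0%) to the tdTomato mean (100%) in CPM. This was done for the 27 members called between the single-reporter fractions with at least 2-fold and 1 CPM, which left out C1ql1, Emid1 and Rlbp1. The median member stood at 0.79%, 1.33%, 3.29% and 2.45% in eGFP/tdTomato replicates 1, 2, 3 and 5, a mean of 1.96 ± 1.12% (SD, n = 4). Progenitor members (10) had medians of 1.46%, 6.69%, 2.10% and 3.25%, and committed members (17) had 0.79%, 1.00%, 3.34% and 2.24%. These 2 lists did not differ beyond the spread between libraries. Low positions were not particular to the members. By the same call and 2-fold span, medians averaged 1.54 ± 0.59% over 14 other committed genes and 0.92 ± 0.47% over 11 myelinating genes. Over 11 other progenitor genes the average was -2.23 ± 2.20%, and positions over all genes were not computed. The position lay under 5% for 22 of 27 members and under 10% for 24, and both counts include the 5 members below 0% named next.

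Xylt1 stood apart from the other members at 70.7 ± 39.2% of the way to the tdTomato mean, with 1 library beyond it. Sapcd2 followed at 26.2 ± 5.35%, Lhfpl3 at 16.1 ± 10.95%, Itpr2 at 8.18 ± 3.48% and Susd5 at 7.80 ± 6.42%. The 5 members called above eGFP lay close together: Lims2 at 1.79 ± 1.09%, Gpr17 at 2.25 ± 1.58%, Enpp6 at 1.84 ± 0.724%, Bcas1 at 1.99 ± 1.15% and Nfasc at 1.95 ± 1.10%. Members not called against eGFP stood there too, among them Matn4 at 2.07 ± 1.86%, Neu4 at 2.01 ± 1.15% and Sirt2 at 2.32 ± 1.07%. Below the eGFP mean stood Tmem163 at -7.19 ± 1.84%, Megf11 at -5.37 ± 6.32%, Gpr37 at -2.34 ± 8.03%, Tnfaip6 at -30.6 ± 20.6% and Ptprz1 at -119 ± 48.1%. For the last 2 genes the eGFP mean is the higher one, so a negative position means a level above both means. The scale matters: on log2 of CPM plus 0.5 the median position was 15.1% for all members, 17.7% for progenitor and 13.8% for committed members.

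**Figure D4:**
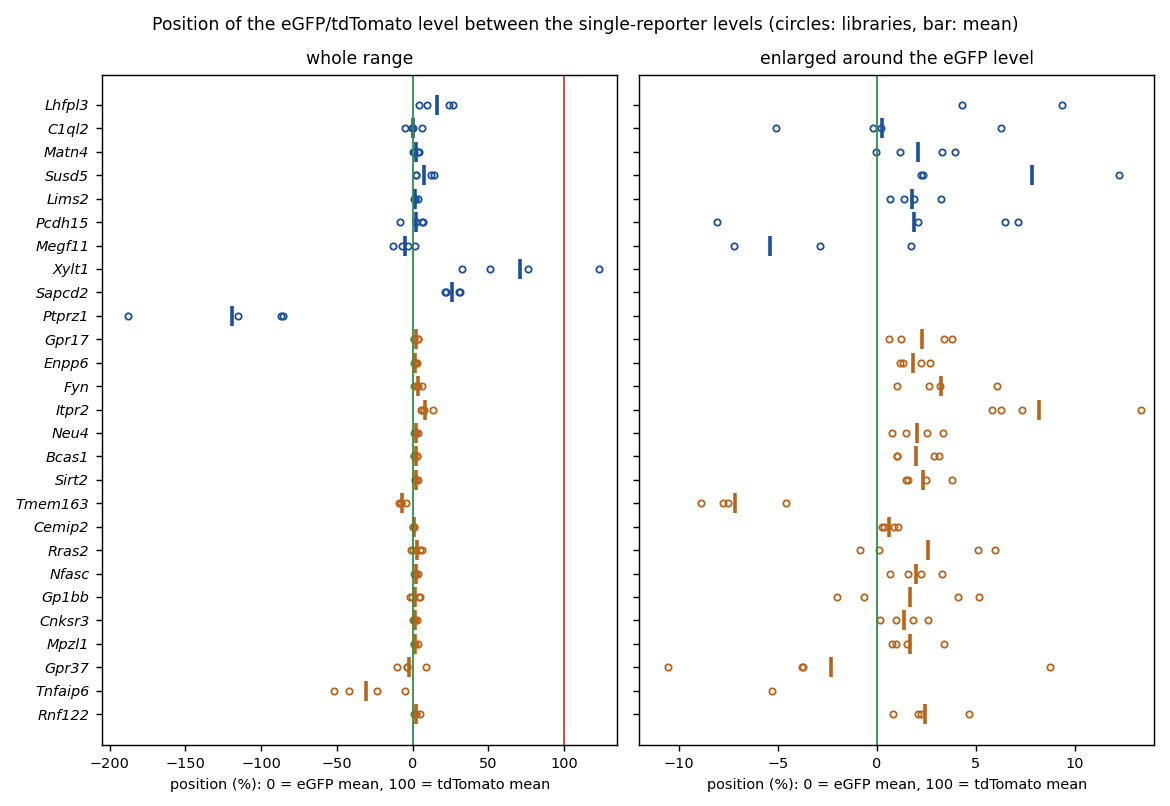
Position of the eGFP/tdTomato level of 27 members between the eGFP mean (0%, green line) and the tdTomato mean (100%, red line), in percent of the CPM difference. Circles are the 4 eGFP/tdTomato libraries and bars their mean. The right panel enlarges the region around 0% and leaves out points beyond it. Most members gather near the eGFP line, with Xylt1 far to the right and Ptprz1 far to the left.

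On the log2 scale the eGFP/tdTomato level was tested against the midpoint of the single-reporter levels. It was below the midpoint for 18 of 30 members and above it for 2, Ptprz1 and Tnfaip6, against 5.19% and 9.23% of all genes tested (14.4% in either direction). Among committed members 15 of 17 were below, with Enpp6 at -1.19 ± 0.28 and Sirt2 at -1.71 ± 0.19. Gpr17 was not called at -0.85 ± 0.52 (adjusted p = 0.394). Among progenitor members Matn4, Lims2 and Megf11 were below, and 9 were not called. Lhfpl3 differed from the midpoint by -0.35 ± 0.24, Sapcd2 by -0.15 ± 0.26 and Xylt1 by 0.39 ± 0.23, all 3 with intervals that include 0.

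The 4 eGFP/tdTomato libraries were not alike. Replicate 3 was the highest for 12 of 17 committed members and replicate 1 the lowest for 9. The summed level of the myelinating list moved with them, at 1097, 1354, 2440.1 and 2169 CPM, and that of Olig1, Olig2 and Sox10 at 461, 507 and 1084 CPM in replicates 1, 2 and 3 and 936 CPM in replicate 5. The astrocyte sum was 49597, 50004, 55867 and 47546 CPM. In the single-reporter fractions replicate 3 was also highest for 11 of 17 committed members in tdTomato and for 10 of 17 in eGFP cells. Replicate 3 had the fewest genes detected of each fraction: 35789 in eGFP/tdTomato, 28244 in tdTomato and 33670 in eGFP libraries. The other eGFP/tdTomato libraries had 43860 to 46149. Reads in genes made up 59.9% of eGFP/tdTomato replicate 3, against 42.7% to 47.0% in the others of that fraction. The part of these library differences in the order was not tested. The part of the myelinating list in the member values was not tested. Its genes were called higher in eGFP/tdTomato than in eGFP cells in 7 of 12 cases, where 0.814% of all genes tested were. Their median position over 11 genes was 0.37%, 0.69%, 1.32% and 1.29%.

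**Figure D5:**
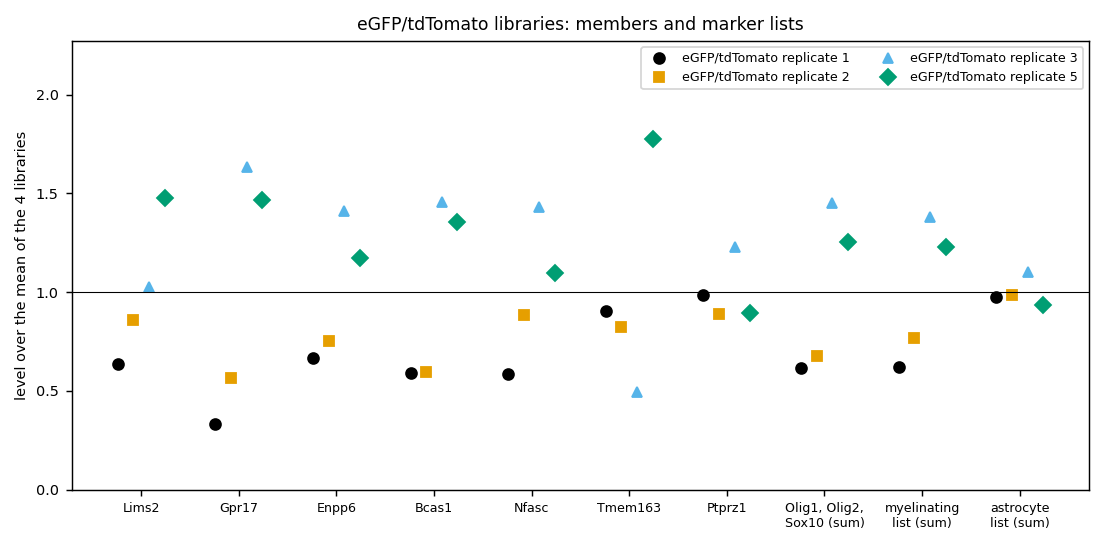
Level in each eGFP/tdTomato library divided by the mean of the 4, for the 6 members called against eGFP, for Ptprz1, and for the sums of the lineage factors, the myelinating list and the astrocyte list. Replicates 3 and 5 lie above 1 for Lims2, Gpr17, Enpp6, Bcas1, Nfasc and for the lineage and myelinating sums, while Tmem163 is lowest in replicate 3 and the astrocyte sum stays near 1.

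The calls against eGFP were repeated in subsets of libraries, of which the split by genes detected was chosen after the data were seen. Without eGFP replicate 1 the counts were 5 higher and 1 lower, with Neu4 called (adjusted p = 0.0419) and Nfasc not. Only 3 members were higher without eGFP/tdTomato replicate 5, without eGFP replicate 2 or without eGFP replicate 5, and the calls of all genes in that direction numbered 127, 152 and 108 in these settings, against 239 with all libraries. Within the 6 libraries with over 40000 genes detected, 4 members were higher and none was lower. Within the other 6, of which 1 is an eGFP/tdTomato library, 3 were higher and none was lower. Against tdTomato cells the same subsets gave 22 members lower and 2 higher in each set of 6 libraries, and 24 lower and 2 higher without eGFP replicate 1. In these sets Sapcd2 lost its call both times (adjusted p = 0.0971 and 0.058), and Susd5 lost it in the second (0.118). With DESeq2 size factors in place of TMM factors the typical gene tested stood 0.57 above tdTomato on the log2 scale, where it stood 0.70 above with TMM factors, and 24 members were lower and 2 higher.

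Other genes of the lineage were read beside the members. Olig1, Olig2 and Sox10, transcription factors of the oligodendrocyte lineage, were all higher in eGFP/tdTomato than in eGFP cells. Olig2, whose reporter sorted these cells, averaged 74.2 ± 29.9 CPM in eGFP/tdTomato and 257 ± 79.9 CPM in tdTomato, against 5.74 ± 3.06 CPM in eGFP libraries (3.68 ± 0.43 over eGFP, adjusted p = 0.000189). Olig1 averaged 659 ± 274 CPM in eGFP/tdTomato and 1036 ± 309 CPM in tdTomato, against 181 ± 119 CPM in eGFP libraries, with no call between the first 2 (adjusted p = 0.245). Sox10 averaged 13.9 ± 9.83 CPM in eGFP/tdTomato and 535 ± 117 CPM in tdTomato, against 1.65 ± 1.25 CPM in eGFP libraries. On the percentage scale used above Olig1 stood at 55.9 ± 32.01%, Olig2 at 27.2 ± 11.9% and Sox10 at 2.30 ± 1.84%.

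Of 16 other progenitor genes, 1 was higher in eGFP/tdTomato than in eGFP cells and none was lower. Of all genes tested, 0.814% and 1.67% were called in those directions. Against tdTomato cells 6 were higher and 8 lower, where 16.8% and 12.4% of all genes were. Pdgfra averaged 7.78 ± 3.19 CPM in eGFP/tdTomato and 207 ± 108 CPM in tdTomato, against 13.1 ± 8.13 CPM in eGFP libraries, with no call over eGFP (adjusted p = 0.785). Cspg4 averaged 12.7 ± 0.590 CPM in eGFP/tdTomato and 61.6 ± 15.9 CPM in tdTomato, against 6.98 ± 1.83 CPM in eGFP libraries, also with no call over eGFP (adjusted p = 0.0712). Kcnip3, a calcium-binding partner of potassium channels, was the gene that rose, at 458 ± 114 CPM in eGFP/tdTomato and 72.5 ± 18.5 CPM in tdTomato, against 125 ± 59.6 CPM in eGFP libraries (1.87 ± 0.34 over eGFP, adjusted p = 0.0053). Of 16 other committed genes, 5 were higher than in eGFP cells and none was lower, against 0.814% and 1.67% of all genes tested. Compared with tdTomato cells 15 were lower, where 12.4% of all genes were. Ugt8a, which makes the myelin lipid galactosylceramide, averaged 60.1 ± 20.3 CPM in eGFP/tdTomato and 4279 ± 761 CPM in tdTomato, against 9.09 ± 5.67 CPM in eGFP libraries (2.72 ± 0.42 over eGFP). Bmp4, Zfp488 and Nkx2-2, named after their values were seen, were also higher than in eGFP cells.

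Markers of other cells were read in the same comparison of eGFP/tdTomato with eGFP cells. Of all genes tested there, 0.814% were called higher and 1.67% lower. Astrocyte genes were higher in 2 of 12 cases and genes of dividing cells in 6 of 10. Ependymal genes were lower in 8 of 10, microglial genes in 6 of 12 and mural or fibroblast genes in 5 of 10. Endothelial (10 tested) and Schwann cell genes (6 of 8 tested) gave no call, and neuronal genes (11 of 12 tested) gave 1, higher. The ependymal sum was 19.3 to 32.8 CPM in eGFP/tdTomato and 4.04 to 12.1 CPM in tdTomato libraries, against 203 to 409 CPM in eGFP libraries. The microglial sum was 77.2 to 101 CPM in eGFP/tdTomato and 34.7 to 65.8 CPM in tdTomato libraries, against 100.1 to 531 CPM in eGFP libraries. Against tdTomato cells, 5 of the 11 neuronal genes were lower and 1 was higher, where 12.4% and 16.8% of all genes were. The neuronal sum was 46.2 to 72.9 CPM in eGFP/tdTomato and 453 to 680.5 CPM in tdTomato libraries, against 67.5 to 87.5 CPM in eGFP libraries. The part of these lists in the member values was not tested.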

How the data were processed

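The 12 libraries were sequenced on a BGISEQ-500 per the labels' protocols, and reads were aligned with STAR and counted with HTSeq on GRCm38 (mm10), per the submitters' processing notes. Tool versions, the strand setting and the annotation release are not given in the sources used here. The deposited values are raw counts per Ensembl gene. The 5 lines that name no gene stayed out of all totals, and they held 36.0% to 71.5% of the reads in a file. GENCODE M21 gave symbols, exon lengths and coordinates for 53360 of the 53465 gene identifiers, and RefSeq gave the promoter windows.

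The members and all lists were chosen with earlier results of these data known. One edgeR 4.0.16 quasi-likelihood fit (TMM factors, filterByExpr, robust) covered all 12 libraries with fraction as the term, and p-values were adjusted by Benjamini-Hochberg over 29361 genes. The procedure was tested on simulated data. All 30 members are named. Values of all libraries are given for members called against eGFP or outside both single-reporter means with a call, and for the 3 highest per kilobase of each list in tdTomato cells. Other lineage genes named are Pdgfra, Cspg4, Olig1, Olig2, Sox10 and the 2 largest called changes per list and direction, of which 1 gene is not reported here. Alternatives were 25 other settings, among them DESeq2 1.42.0 and limma 3.58.1.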

Additional observations from a re-analysis of the deposited data

Results flagged for a closer look

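Of 90 groups of 4 libraries (30 members in 3 fractions), 1 held a library far from the other 3. In eGFP cells Lims2 had 4.72 CPM in replicate 1, against 2.63, 2.67 and 2.97 CPM in the other 3 libraries, and the gap took up 0.841 of the whole range, above Dixon's critical value for 4 values. Chance flags about 1 in 20 such groups. This library also held 57.1% of its reads in no annotated feature, and the part of that in the Lims2 value was not tested.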

How the results depend on the processing

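Of 2250 member results recomputed in 25 other settings, 2107 kept direction and call, 41 gained a call and 44 lost one. The other 58 turned sign, each of a member with no call in that comparison. Of the calls against eGFP, Enpp6 and Bcas1 kept theirs in 25 of 25 settings, Gpr17 in 23, Lims2 and Tmem163 in 16 and Nfasc in 13. Members called higher than eGFP numbered 8 with a filter of 1 CPM in 4 libraries and 9 with DESeq2. Without the 3 libraries numbered 2 (set 2) there were 3 and without set 5 there were 2. With a term for libraries with over 40000 genes detected, chosen after seeing the data, there were 13, and within the 6 libraries under it 3. Members called lower than eGFP numbered 0 without set 1, 2 or 3 and 0 within either detection subset (over or under 40000 genes). Ptprz1 lost its call between tdTomato and eGFP without set 3 and within the over-40000 subset, which left 1 lower member each time. Against the midpoint 4 members were higher with the detection term, and 10 were lower in the under-40000 subset. The cause of these changes was not tested. The subsets hold fewer libraries, while the 1 CPM filter, DESeq2 and the detection term keep all 12. The median position on the log2 scale was 15.1% for all members, 17.7% for progenitor and 13.8% for committed members. C1ql2 had 30, 10, 0 and 0 reads and Susd5 had 30, 28, 0 and 19 reads in eGFP replicates 1, 2, 3 and 5. These libraries held 12564767, 20712302, 27898597 and 23098243 reads in genes, and the part of depth in the low counts was not tested.

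Libraries were not treated as pairs, because the labels do not say what a set shares and not every same-numbered pair deviated together. Correlations of deviations from the fraction means over 18515 genes were 0.50 to 0.64 in set 3, 0.19 to 0.34 in set 5, -0.22 to 0.19 in set 2 and -0.08 to 0.31 in set 1, and eGFP/tdTomato replicate 2 correlated best with eGFP replicate 1 (0.56). With the replicate block, 9 members and 566 genes were higher than eGFP, C1ql1 stood at -0.0849 over eGFP, and C1ql1 in tdTomato over eGFP at -0.0047.

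Over all genes, 239 were higher and 491 lower in eGFP/tdTomato than in eGFP cells. DESeq2 gave 547 higher and 949 lower. Sets 1, 2 and 5 left out gave 115, 99 and 60 higher, and sets 2 and 5 gave 238 and 201 lower. The detection term gave 716 higher, and the under-40000 subset 44 higher and 42 lower. Against tdTomato the over-40000 subset gave 1995 higher and 2306 lower, and the other subset 2940 higher and 1709 lower. Between tdTomato and eGFP the over-40000 subset gave 2302 lower. Against the midpoint these subsets gave 1536 and 1186 higher, and the under-40000 subset 364 lower. There 2715 were lower with the 1 CPM filter, 2795 with DESeq2, 933 without set 2 and 1002 without set 5.

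Leaving out 1 library at a time gave 3 to 7 members higher and 0 to 1 lower than eGFP, and 103 to 475 and 323 to 656 genes. Against tdTomato it gave 2 to 3 and 24 to 25 members, and 3767 to 6232 and 2888 to 5452 genes. Between tdTomato and eGFP it gave 25 members higher and 2 lower each time, and 3514 to 5625 and 4359 to 7632 genes. Against the midpoint it gave 2 members higher and 14 to 20 lower, and 1677 to 2874 and 1068 to 2850 genes. The median position ranged from 1.25% to 2.36% for all members, 2.27% to 5.20% for progenitor and 1.00% to 2.203% for committed members.

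Log2 changes over eGFP turned sign as follows. C1ql1 was at -0.0265 with DESeq2 size factors, -0.0052 without filter, -0.0393 with the 1 CPM filter, -0.0280 with DESeq2, -0.0609 with limma-voom, -0.0769 without set 1, -0.6452 without set 5 and -0.7439 in the under-40000 subset. C1ql2 was at -0.0026 with the 1 CPM filter, -0.0237 with DESeq2, -0.3199, -0.0264 and -0.2967 without sets 2, 3 and 5, -0.0573 with the detection term, and -0.1140 and -0.1978 in the over-40000 and under-40000 subsets. Pcdh15 was at -0.2417 without set 2, -0.0151 with the term and -0.0477 and -0.3053 in those subsets. Megf11 was at 0.0222 with limma-voom, 0.2078 without set 1 and 0.2872 in the under-40000 subset. Cemip2 was at -0.0306 without set 1 and -0.1829 in the under-40000 subset. Emid1 was at 0.0396 with the term and 0.3581 in the over-40000 subset, and Gpr37 at 0.0424 and 0.1499. Rlbp1 was at -0.1007 and Mpzl1 at -0.0203 without set 1, and Gp1bb at -0.0350 without set 3. Over tdTomato, C1ql1 was at 0.0840 without set 2 and 0.0006 with the term, and Xylt1 at 0.0900 with the term. In tdTomato over eGFP, C1ql1 was at -0.0380 without set 1, -0.0044 without set 5 and -0.0578 in the under-40000 subset, and Rlbp1 at 0.0027 without set 3. With 1 library left out, the log2 change over eGFP ranged from -0.4204 to 0.3040 for C1ql1, -0.3049 to 1.8307 for C1ql2, -0.4813 to 0.0586 for Emid1, -0.0481 to 0.3679 for Rlbp1, -0.0278 to 1.0084 for Pcdh15, -0.5133 to 0.2083 for Megf11, -0.0346 to 0.6086 for Cemip2 and -0.3596 to 0.1823 for Gpr37. For C1ql1 it ranged from -0.5663 to 0.3067 over tdTomato, and from -0.2617 to 0.4050 in tdTomato over eGFP.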
